A study of Homo sapiens with 9 samples.

Results

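The genes described here are protein-coding genes that have no intron in their main transcript and that carried a peak of RNA polymerase II at their start. They were chosen by 2 criteria. The transcript tagged as canonical in GENCODE version 44 had 1 exon, and a peak summit, the base of highest signal in a peak, lay within 1000 bp of its start in at least 1 of 3 deposited peak lists. Histone genes, zinc finger genes of chromosome 19, JUN, JUNB, JUND, IER2, HEXIM1, HSPA1A and HSPA1B were left out by name. This left 87 of the 1038 single-exon coding genes that remained in the annotation (8.38%), set against 4638 coding genes of any structure with a summit at their start. The presence of a peak in a list was used to choose the genes, so every count of lists below is a description and was not tested.

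Most human coding genes are split into exons, and the introns between them are removed from the transcript by the spliceosome. U2AF1 is the small subunit of the factor that recognises the end of an intron, at the 3′ splice site, and DHX9 is a helicase that unwinds RNA and hybrids of RNA and DNA. Genes with 1 exon are transcribed by the same polymerase but need no splicing of their main transcript. Many of them are short genes for signalling proteins and transcription factors that are induced quickly, and others arose when a spliced messenger RNA was copied back into the genome, which makes a retrogene.

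The samples were HEK293T cells, an established human embryonic kidney line, in which binding of POLR2A, the catalytic subunit of RNA polymerase II, was mapped by chromatin immunoprecipitation with sequencing (ChIP-seq). They carried a control shRNA in otherwise wildtype cells, a knockdown of U2AF1 or a knockdown of DHX9, with 2 ChIP replicates and 1 input sample in each condition. The series deals with R-loops at promoters and with U2AF1, and each knockdown list is set beside the control list to see where polymerase was found. The labels name neither the sequence that made each knockdown nor its duration, and they do not say whether the replicates were separate cultures.

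Only 1 list of peaks was deposited for each condition, which gives the values below no error between replicates. There were 2757 peaks in control cells, 1730 under U2AF1 knockdown and 4443 under DHX9 knockdown. The peak names of the control list end in a label that reads as replicate 1, and those of the knockdown lists do not, which leaves unknown whether 1 or both control libraries were used. The number of reads in each library is unknown. Of the genes fixed as a check of the cell line, LIN28B, PAX2 and NEFM had a summit at their start in 0 of the lists, and so did the 7 genes that define other cell types, among them ALB and HBB. The label of the cell line could therefore not be checked with these markers.

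The genes were short. From start to end they measured a median of 2641 bp, with a range from 72 to 11511 bp for PURA, against a median of 30822.5 bp for the 4500 multi-exon coding genes with a summit. Every annotated transcript had 1 exon in 69 of the 87 genes, and the others had a spliced transcript besides the canonical one. The annotation marked 21 of the 87 as retrogenes (24.1%), a share close to the 23.1% (220 of 951) among single-exon genes without a summit. Of those 951 genes, 238 were olfactory or bitter taste receptors, a class that gave 0 of the 87. Among the 1038 single-exon genes not left out by name, 8.38% had a summit, against 23.8% of multi-exon genes. A further 51 single-exon genes with a summit had been left out by name, whereas no multi-exon gene was. The difference is therefore wider than it would be over all 1130 single-exon genes. No symbol was given for 9 of the 87, and 7 were annotated over fewer than 300 bp.

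The stretch just before the start is shown for the 5 genes whose peaks stood highest over all 3 lists, because polymerase is placed there before it begins to copy the gene. These are CEBPA (chr19:33302535-33302634, minus strand), CEBPB (chr20:50190730-50190829, plus strand), RHOB (chr2:20446974-20447073, plus strand), NRARP (chr9:137302272-137302371, minus strand) and IER5L (chr9:129178262-129178361, minus strand). Each line gives the 100 bases that end at the base before the annotated start, 5′ to 3′ on the strand of the gene, from the hg38 reference. Capitals mark the letters TATAAA where they lie on the sense strand between 40 and 20 bases before the start, the core of a TATA box. They also mark CCAAT and GGGCGG on either strand, read as ATTGG and CCGCCC when the match is on the other strand.
CEBPA: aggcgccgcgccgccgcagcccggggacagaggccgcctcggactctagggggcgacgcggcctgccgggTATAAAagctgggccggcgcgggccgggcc
CEBPB: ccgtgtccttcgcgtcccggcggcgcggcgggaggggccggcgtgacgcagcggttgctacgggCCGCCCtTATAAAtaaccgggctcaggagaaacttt
RHOB: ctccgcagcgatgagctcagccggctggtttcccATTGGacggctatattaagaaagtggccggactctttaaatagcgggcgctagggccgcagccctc
NRARP: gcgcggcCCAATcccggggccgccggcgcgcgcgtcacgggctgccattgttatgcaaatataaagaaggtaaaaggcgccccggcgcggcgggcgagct
IER5L: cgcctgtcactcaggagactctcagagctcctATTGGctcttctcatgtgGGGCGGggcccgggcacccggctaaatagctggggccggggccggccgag

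TATAAA stood 30 bases before the start of CEBPA and 29 bases before that of CEBPB. In NRARP the same letters began 41 bases before the start, 1 base outside the window searched, and are printed in lower case. CCAAT was present upstream of RHOB, NRARP and IER5L, and GGGCGG upstream of CEBPB and IER5L.

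The next group is shown because the lists that held it differed. IER5 (chr1:181088600-181088699, plus strand) was in the control and DHX9 knockdown lists, whereas FAM43A (chr3:194685783-194685882, plus strand) was in the U2AF1 knockdown list alone. Capitals mark the same letters.
IER5: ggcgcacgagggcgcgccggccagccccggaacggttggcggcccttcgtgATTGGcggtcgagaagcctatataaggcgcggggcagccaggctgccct
FAM43A: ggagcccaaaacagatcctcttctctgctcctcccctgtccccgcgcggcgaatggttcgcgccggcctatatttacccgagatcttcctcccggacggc

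IER5 held CCAAT on the other strand, and none of the 3 searched motifs lay in the 100 bases before FAM43A. A match is a run of letters and not a measured binding site.

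Over all 87 genes, TATAAA in its window was found in 5 (5.75%): CEBPA, CEBPB, FZD8, OLIG3 and SEPHS2. The share was 1.84% of the 4500 multi-exon genes with a summit, 5.68% of the 951 single-exon genes without one and 3.86% of all 20046 coding genes. The single-exon genes with and without a summit thus held the motif at nearly the same rate. For the other motifs both strands of the 300 bases from 250 before to 50 after the start were searched. CCAAT was found in 36 of the 87 (41.4%), against 34.5% of multi-exon genes with a summit and 36.1% of all coding genes. GGGCGG was found in 73 of the 87 (83.9%), against 82.3% and 61.3%.

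Base composition differed between single-exon genes with and without a summit. The share of G and C in the same 300 bases had a median of 68.0% in the 87 genes, 69.3% in multi-exon genes with a summit and 47.7% in single-exon genes without one. R-loops form more readily where the RNA is rich in G, so the excess of G over C, divided by their sum, was computed on the coding strand over the 500 bases after the start. Its median was 0.031 in the 87 genes, 0.069 in multi-exon genes with a summit and -0.040 in single-exon genes without one. G outnumbered C in 54 of the 87 (62.1%) and in 72.2% of the multi-exon genes. Among the 13 genes held by all 3 lists, G outnumbered C in 5 (38.5%), and CEBPA, CEBPB, NRARP and IER5L were among those with more C. These shares describe the genes and were not tested.

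**Figure D1:**
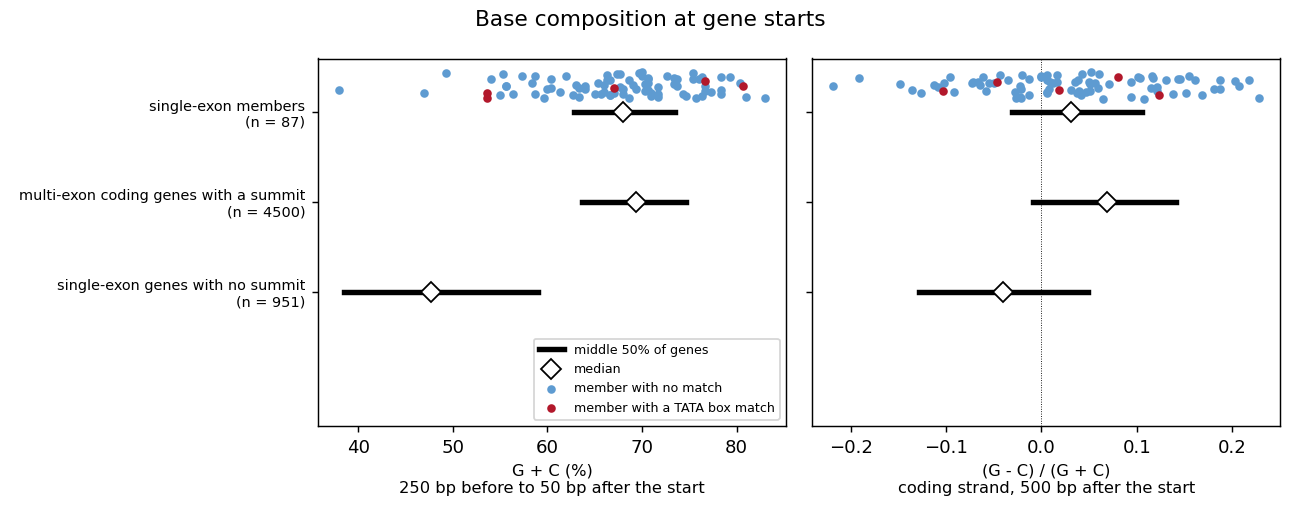
Base composition at gene starts. The left panel plots the percentage of G and C from 250 bp before to 50 bp after the start, and the right panel plots (G - C) / (G + C) on the coding strand over the 500 bp after the start. Points are the 87 single-exon genes, red where TATAAA was matched, diamonds are group medians and bars span the middle 50% of genes. In the left panel the median of single-exon genes without a summit, 47.7%, lies far below the 68.0% of the 87 genes, and in the right panel the 87 genes lie on both sides of 0.

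Presence in the 3 lists followed the list sizes. The control list held 44 of the 87 genes (50.6%, 95% Wilson interval 40.3 to 60.8), and of all coding genes with a summit it held 50.6%. In the DHX9 knockdown list there were 68 (78.2%, 68.4 to 85.5), against 84.2% of all such genes. The U2AF1 knockdown list held 29 (33.3%, 24.3 to 43.8), against 26.4%. The intervals cover counting error over genes only. The single-exon genes were thus present in the control list at the background rate, somewhat below it in the DHX9 knockdown list and somewhat above it in the U2AF1 knockdown list, and each background share lay within the interval.

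Of the 44 genes in the control list, 15 were also in the U2AF1 knockdown list (34.1%, 21.9 to 48.9), and the background was 34.8%. In the DHX9 knockdown list, 34 of the 44 were found (77.3%, 63.0 to 87.2), and the background was 75.0%. Loss of a control peak from either knockdown list was therefore as frequent in these genes as in coding genes at large, within counting error. Read from the other side, of the 29 genes in the U2AF1 knockdown list the control list held 15 (51.7%) and the DHX9 knockdown list 18 (62.1%, 44.0 to 77.3), against 66.2% and 81.4% of multi-exon genes.

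All 3 lists held 13 of the 87 genes (14.9%, background 15.8%). Control and DHX9 knockdown without U2AF1 knockdown held 21 (24.1%, against 22.1% of multi-exon genes), control and U2AF1 knockdown held 2, and both knockdowns without control held 5 (5.75%, against 5.67% of multi-exon genes). The control list alone held 8 (9.20%, background 10.9%) and the DHX9 knockdown list alone 29 (33.3%, background 40.6%). The U2AF1 knockdown list alone held 9 (10.3%, 5.54 to 18.5), against a background of 3.19%, and this was the only pattern whose interval did not include the share of multi-exon genes, 3.09%. Most of the 9 peaks were weak: 7 had a −log10 q, the negative logarithm of the deposited q-value, below 5. Among multi-exon genes of that pattern, 97 of 139 (69.8%) were below 5 as well.

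**Figure D2:**
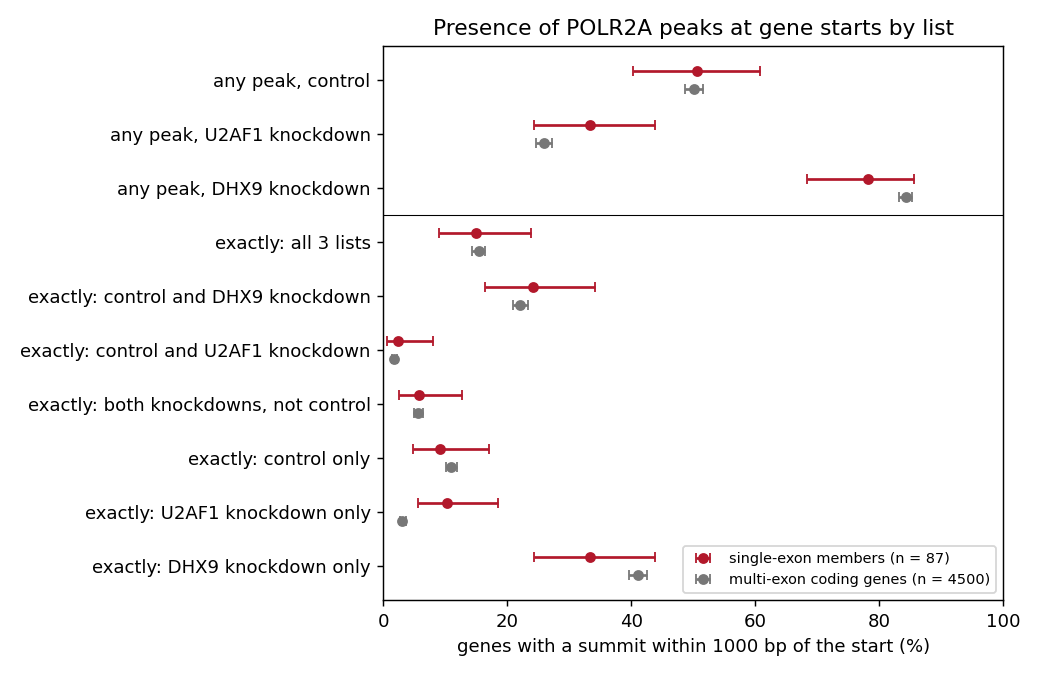
Share of genes with a POLR2A summit within 1000 bp of the start, by list and by exact combination of lists. The x axis is the percentage of the 87 single-exon genes (red) or of the 4500 multi-exon coding genes (grey), and bars are 95% Wilson intervals over genes. The red and grey intervals overlap in all rows except U2AF1 knockdown only, where 10.3% stands against 3.09%.

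The share of this pattern was recomputed under some of the other settings. Where only peaks with a −log10 q of at least 5 were kept, 3 genes were in the U2AF1 knockdown list alone, 5.36% of 56 (1.84 to 14.6), an interval that includes the 2.71% of multi-exon genes. They included FAM43A and FRAT2, whose DHX9 knockdown peak had a −log10 q of 4.90. With each list cut to its 1730 peaks of lowest p-value, 14 of 50 genes (28.0%, 17.5 to 41.7) were in the U2AF1 knockdown list alone. That interval did not include the 15.3% of multi-exon genes. With a window of 500 bp the share was 8.97% (4.42 to 17.4), against 3.15% of multi-exon genes. With 2000 bp it was 11.8% (6.73 to 19.9), against 3.08%. Among these settings, the interval included the multi-exon share only under the stricter −log10 q. The pattern was singled out from the same lists that chose the genes, and the intervals are not adjusted for the number of patterns. They therefore cannot decide whether the excess arose by chance, and its source was not tested.

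The height of peaks is given as fold enrichment, the ratio of signal over background computed by the authors' peak caller, and as rank, where 1 is the highest fold in that list. Fold and rank describe a peak within its own list, since depth and background differ between libraries. In percentiles of fold, where 100 is the top of a list, the 87 genes had medians of 51.1 in the control list, 60.3 under U2AF1 knockdown and 50.2 under DHX9 knockdown. Multi-exon genes had 54.3, 58.2 and 54.3. The single-exon genes thus sat near the middle of each list. In the top 10% of peaks by fold were 6 of 44 (13.6%), 6 of 29 (20.7%) and 7 of 68 (10.3%), and of multi-exon genes 7.89%, 7.47% and 8.99%. The difference was not tested.

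**Figure D3:**
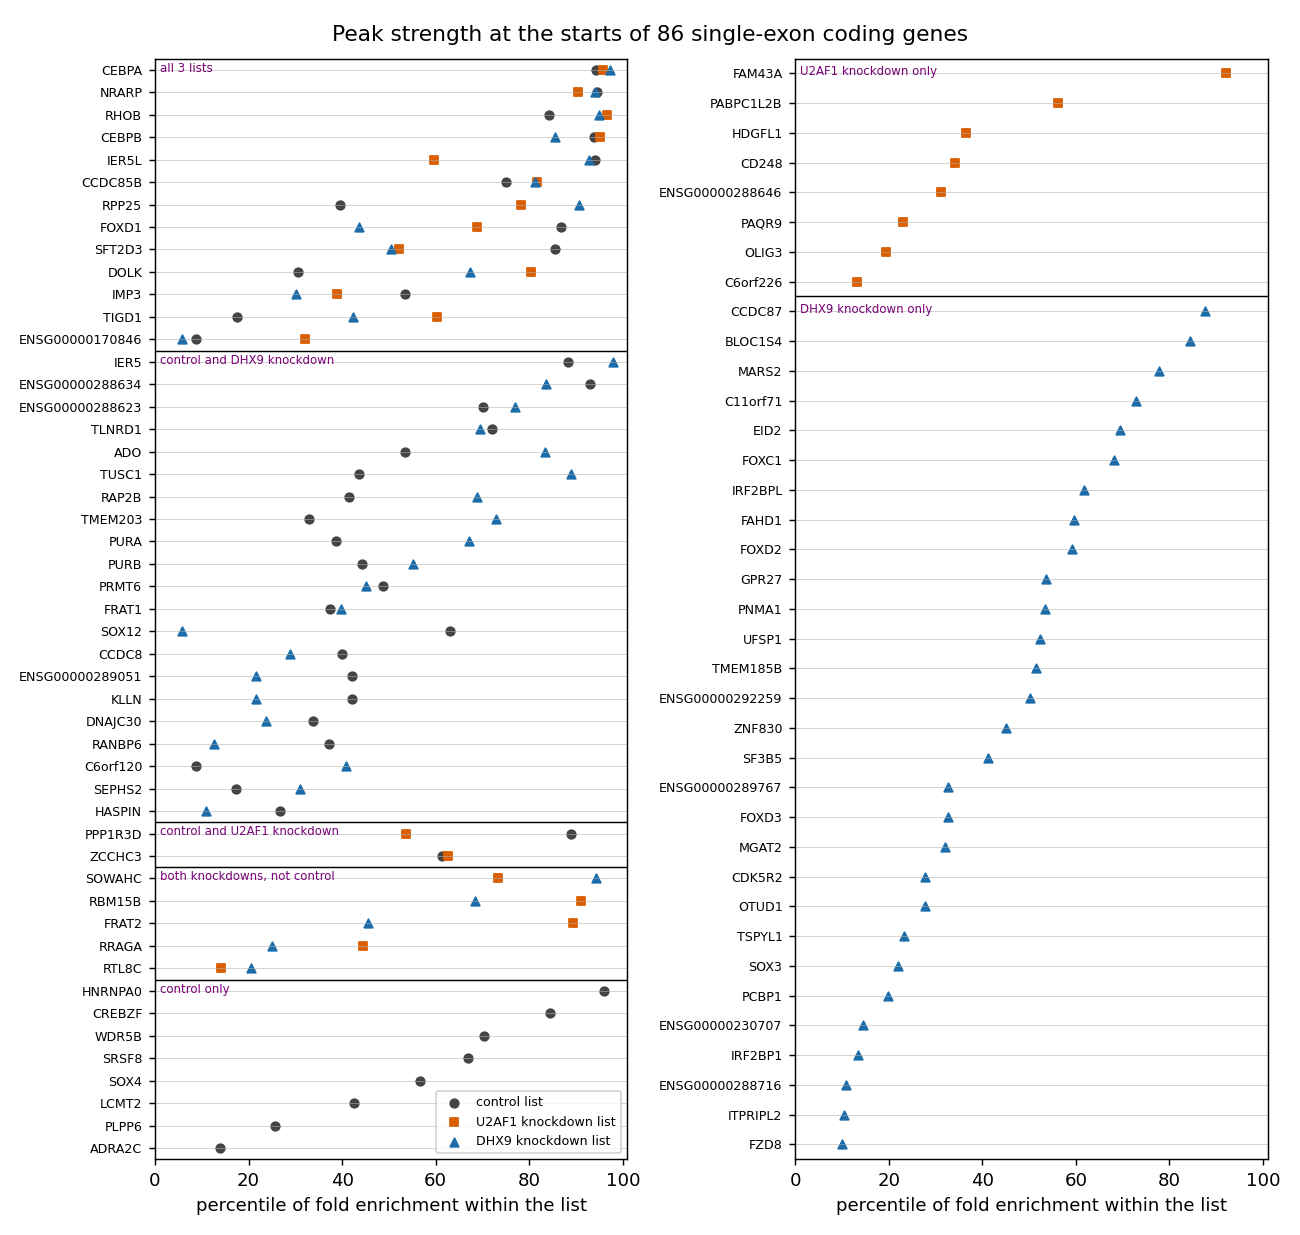
Peak height at the start of 86 of the 87 single-exon genes. The x axis is the percentile of fold enrichment among all peaks of the same list, rows are genes grouped by the combination of lists that held them, and symbols give the list. CEBPA, NRARP and RHOB lie at the right in all 3 lists, while FAM43A leads the genes held by the U2AF1 knockdown list alone.

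Transcription factors and cofactors formed the largest group with a known role, 14 of the 77 single-exon genes listed in it. The control list held 7, the U2AF1 knockdown list 5, that of DHX9 knockdown 11 and all 3 lists 3, beside shares of 50.6%, 26.4%, 84.2% and 15.8% of all coding genes with a summit. CEBPA and CEBPB encode leucine zipper factors that direct differentiation and acute-phase transcription. CEBPA (ENSG00000245848, chr19:33299934-33302534, minus strand) had a fold of 8.15 in the control list (rank 159), 10.3 under U2AF1 knockdown (rank 73) and 12.0 under DHX9 knockdown (rank 125). Its summit lay 77, 79 and 59 bp after the start in the same order. CEBPB (ENSG00000172216, chr20:50190830-50192668, plus strand) had a fold of 7.84 (rank 171), 9.76 (rank 87) and 7.36 (rank 646), with summits at 36, 71 and 111 bp. Both were therefore near the top of the control and U2AF1 knockdown lists, and CEBPB stood lower in the DHX9 knockdown list.

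The forkhead factors, which bind DNA through a winged helix, gave 4 genes. FOXD1 was in all 3 lists, with a fold of 5.99 in the control list, 5.51 under U2AF1 knockdown and 5.07 under DHX9 knockdown, and summits 187 to 251 bp after the start. FOXC1 (fold 6.03), FOXD2 (5.60) and FOXD3 (4.69) were in the DHX9 knockdown list alone. FOXD3 had a second DHX9 knockdown peak 2019 bp after its start and 542 bp from its end, with a fold of 3.82.

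SOX genes encode factors with a high-mobility-group DNA-binding domain. SOX4 was in the control list alone, with a fold of 4.34 and a −log10 q of 12.4. SOX12 was in the control list with a fold of 4.55 and a summit at 142 bp, and among DHX9 knockdown peaks with a fold of 3.28 and a summit at -978 bp, before the start, so its 2 peaks were not the same site. SOX3 entered through a DHX9 knockdown summit at 951 bp (fold 4.28). PURA and PURB, which bind purine-rich single strands of DNA and RNA, were both in the control and DHX9 knockdown lists, with folds of 3.79 and 5.99 for PURA and 3.95 and 5.49 for PURB. EID2, an inhibitor of differentiation, was in the DHX9 knockdown list alone (fold 6.12).

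OLIG3, a helix-loop-helix factor of the developing nervous system, was held by the U2AF1 knockdown list alone. It had a fold of 3.63 (rank 1394), a −log10 q of 2.39 and a summit at 943 bp. No other summit of any list lay within 1000 bp of its start.

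Genes of the stress and early response gave 3 of 9, and all 3 were in the control list (background 50.6%) and in that of DHX9 knockdown (84.2%). IER5, an early response gene that acts with heat shock factor (ENSG00000162783, chr1:181088700-181092900, plus strand), had a fold of 6.16 in the control list (rank 324) and 13.6 in the DHX9 knockdown list (rank 95), the highest fold in that list among summits within 1000 bp of the starts of the 87 genes. Its summits lay 44 and 53 bp after the start, and it was not in the U2AF1 knockdown list. IER5L, its relative, was in all 3 lists, with a fold of 8.11 (rank 162) in the control list, 5.11 (rank 698) in the U2AF1 knockdown list and 8.69 (rank 321) in the DHX9 knockdown list. IER5L thus stood nearer the middle of the U2AF1 knockdown list than of the other lists, with a percentile of 59.7 there against 94.2 and 92.8. DNAJC30, a mitochondrial protein with a DnaJ domain, had folds of 3.65 and 4.39, and its control summit lay nearer to the start of BUD23.

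Small GTPases and signalling genes gave 4 of 22. RHOB, a small GTPase of endosomes whose gene responds to growth factors and DNA damage (ENSG00000143878, chr2:20447074-20449440, plus strand), had a fold of 5.75 in the control list (rank 437), 10.9 under U2AF1 knockdown (rank 61) and 9.62 under DHX9 knockdown (rank 225). Of the U2AF1 knockdown summits within 1000 bp of a start of the 87 genes, this was the highest by fold. RAP2B, a Ras-related GTPase, had folds of 3.86 and 6.06 in the control and DHX9 knockdown lists. PPP1R3D, which targets protein phosphatase 1 to glycogen, was in the control list (fold 6.27) and the U2AF1 knockdown list (4.84), with both summits nearest to the neighbouring start of FAM217B. CDK5R2, an activator of the kinase CDK5, was in the DHX9 knockdown list alone (fold 4.48). RRAGA, a GTPase that brings amino acid signals to mTORC1 and that the symbol patterns did not place in this group, was in both knockdown lists, with folds of 4.57 and 4.44.

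Genes of Notch and Wnt signalling were spread over several groups. NRARP, an inhibitor of Notch that Notch itself induces (ENSG00000198435, chr9:137299631-137302271, minus strand), had a fold of 8.34 (rank 153), 7.60 (rank 165) and 9.17 (rank 269) in the lists of control, U2AF1 knockdown and DHX9 knockdown cells. Its summits lay 30, 66 and 44 bp after the start. FRAT1 and FRAT2 lie 15458 bp apart and encode proteins that bind the kinase GSK3. FRAT1 was in the control and DHX9 knockdown lists (folds 3.76 and 4.90), while FRAT2 was in both knockdown lists, with a fold of 7.35 (rank 186) in that of U2AF1 and 5.15 in that of DHX9. FZD8, a Wnt receptor, was in the DHX9 knockdown list alone (fold 3.69).

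RNA processing and translation gave 7 of 22 genes, of which the control list held 3, the U2AF1 knockdown list 3 and that of DHX9 knockdown 4, with the same shares of all coding genes as background (50.6%, 26.4% and 84.2%). HNRNPA0, an hnRNP protein, had the highest control fold of the 87 genes within the 1000 bp limit, 9.60 (rank 112), under a peak of 1560 bp with its summit 953 bp after the start (ENSG00000177733, chr5:137745651-137754363, minus strand). It was counted as control only because its summits in the knockdown lists lay just past the 1000 bp limit. These were at 1033 bp with a fold of 11.1 (rank 55) under U2AF1 knockdown and at 1037 bp with a fold of 20.1 (rank 56) under DHX9 knockdown. Polymerase was therefore found in all 3 lists at about the same place within this gene.

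The other RNA genes were more divided. RPP25, a subunit of ribonuclease P, was in all 3 lists, with a fold of 3.81 (rank 1670), 5.98 (rank 378) and 8.14 (rank 417) in the lists of control, U2AF1 knockdown and DHX9 knockdown cells, and its summits lay within 7 bp of each other. RBM15B, which takes part in N6-methylation of adenosine in RNA, was in both knockdown lists, with a fold of 7.84 (rank 155) in that of U2AF1 and 6.05 (rank 1401) in that of DHX9. SRSF8, a serine- and arginine-rich splicing protein, was in the control list alone (fold 4.70). SF3B5, a subunit of the U2 particle of the spliceosome, and PCBP1, which binds runs of C in RNA, were in the DHX9 knockdown list alone, with folds of 4.98 and 4.20. The PCBP1 summit lay at -871 bp, before the start, and no peak overlapped the gene itself. PABPC1L2B, a relative of the poly(A)-binding protein, was in the U2AF1 knockdown list alone (fold 4.94), and it has a near-identical copy, so the placement of reads there is uncertain. IMP3, a component of the U3 particle that processes ribosomal RNA, fell outside the symbol patterns and was in all 3 lists, with folds of 4.23, 4.33 and 4.57.

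Zinc finger genes away from chromosome 19 gave 2 of 7. ZCCHC3, a nucleic acid sensor cofactor, was in the control list (fold 4.50) and the U2AF1 knockdown list (5.22), and ZNF830 was in the DHX9 knockdown list alone (5.10). Genes of ubiquitin and BTB-Kelch proteins gave 1 of 49, the deubiquitinase OTUD1 (4.48, DHX9 knockdown list alone). Membrane receptors and channels gave 5 of 336, a group that the olfactory receptors dominate. Of these, GPR27, TMEM185B and FZD8 were in the DHX9 knockdown list alone, TMEM203 was in the control and DHX9 knockdown lists (folds 3.63 and 6.32), and ADRA2C, an adrenergic receptor, was in the control list alone with a −log10 q of 1.44, the lowest of the 44 genes in that list. The group of nucleosome assembly and chromosome proteins gave 2 of 14: TSPYL1, of the nucleosome assembly family (4.37, DHX9 knockdown list alone), and PRMT6, an arginine methyltransferase that modifies histones, which the pattern for protamines caught by its letters (4.08 and 5.11 in the control and DHX9 knockdown lists). The melanoma antigen group gave 0 of 10, and the 13 genes of the mitochondrial genome gave 0.

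Among the 49 genes of no listed role, 7 were in all 3 lists (background 15.8%). CCDC85B had a fold of 5.11, 6.28 and 6.94 in the lists of control, U2AF1 knockdown and DHX9 knockdown cells. SFT2D3, of a family acting in vesicle transport, had 5.86, 4.81 and 5.27. DOLK, the kinase that makes dolichol phosphate, had 3.55, 6.19 and 6.00. With NRARP, IMP3, TIGD1 and ENSG00000170846 these make up the 7, and ENSG00000170846 had the weakest peaks, with ranks 2518, 1176 and 4183. Its summits lay before the start, at -557, -547 and -122 bp, so its DHX9 knockdown peak was not at the site of the others. No control or U2AF1 knockdown peak overlapped this gene.

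Other genes of no listed role marked single patterns. SOWAHC, an ankyrin repeat protein, was in both knockdown lists, with a fold of 5.73 in that of U2AF1 and 9.34 (rank 252) in that of DHX9, and RTL8C, a retrotransposon-derived gene with close copies, had 3.27 and 4.22. In the U2AF1 knockdown list alone, FAM43A (ENSG00000185112, chr3:194685883-194689037, plus strand) had a fold of 8.19 (rank 138) and a −log10 q of 13.6, with its summit 49 bp after the start. Weaker genes of that pattern were HDGFL1 (4.26), CD248, the cell surface protein endosialin (4.19), ENSG00000288646 (4.08), PAQR9 (3.79) and C6orf226 (3.18). The start of ENSG00000288646 lies 198 bp from that of FBXO9, on the same strand. In the control list alone, CREBZF, a leucine zipper coregulator, had a fold of 5.79 (rank 428), WDR5B, a copy of the chromatin adaptor WDR5, had 4.86, LCMT2, a tRNA-modifying enzyme, had 3.90, and PLPP6, a lipid phosphatase, had 3.40.

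The genes shared by the control and DHX9 knockdown lists ranged from high to low peaks. ENSG00000288634 had folds of 7.28 and 7.11, and its start lies 27 bp from that of another coding gene, ENSG00000288640. ENSG00000288623 had 4.86 and 6.58, but both of its summits lay nearer to the start of RNF10. TLNRD1, with a talin rod domain, had 4.96 and 6.13, and ADO, an enzyme that oxidises cysteamine, had 4.23 and 7.10. TUSC1 was unusual in position, since its summits lay 692 and 729 bp after the start of a gene of 1476 bp, with folds of 3.93 and 7.84. HASPIN, a histone kinase of mitosis, had 3.44 and 3.75, SEPHS2, which makes selenophosphate, had 3.07 and 4.61, and RANBP6, an importin relative, had 3.75 and 3.85. CCDC8 had 3.82 and 4.52, and C6orf120 had 2.56 and 4.96.

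In the DHX9 knockdown list alone, CCDC87 had a fold of 7.61 (rank 549), BLOC1S4, a subunit of a complex that forms lysosome-related organelles, had 7.23 (rank 692), and MARS2, the mitochondrial methionyl-tRNA synthetase, had 6.63 (rank 985). C11orf71 had 6.32 (rank 1210). The corepressors IRF2BPL and IRF2BP1 had 5.77 and 3.91. Other genes of the pattern were FAHD1, PNMA1, UFSP1, MGAT2, ITPRIPL2 and unnamed genes, and the 29 together ranged from 3.69 for FZD8 to 7.61. Of the 29, 11 had a −log10 q below 5, compared with 3 of the 8 held by the control list alone.

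Control peaks were compared by whether the gene was also in a knockdown list. The 15 genes also in the U2AF1 knockdown list had a median control percentile of 84.2 (range 8.71 to 94.5), and the 29 missing from it had 42.5 (8.81 to 96.0), so the ranges overlapped almost wholly. HNRNPA0, the highest of the 29, was missing only by the 1000 bp limit. In multi-exon genes the medians were 69.0 (n = 770) and 48.0 (n = 1487), the same direction. The DHX9 knockdown list did not follow this order in the single-exon genes. There the 34 control genes also listed had a median control percentile of 44.0 and the 10 missing had 64.1, HNRNPA0 among them, whereas multi-exon genes had 57.4 and 45.7. The spread within these small groups was wide, with control percentiles from 8.71 to 94.5 for the 34 and from 13.9 to 96.0 for the 10, so the 2 ranges overlapped over most of their length.

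Across genes present in both lists of a pair, Spearman's rank correlation of fold was 0.41 for control and U2AF1 knockdown (n = 15), 0.64 for control and DHX9 knockdown (n = 34) and 0.76 for the knockdowns (n = 18). For multi-exon genes the values were 0.42 (n = 770), 0.37 (n = 1688) and 0.36 (n = 948). The points are genes measured in the same libraries, each pair of lists shares its libraries with another pair, and no test was made. The summits of a gene lay within 100 bp of each other in 14 of 15, 26 of 34 and 14 of 18 genes of the same pairs. SOX12, with a gap of 1120 bp, was the farthest apart.

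Summits lay just downstream of the start, as in other genes. Their median position was 37.5 bp after the start in the control list, 64.0 bp under U2AF1 knockdown and 46.5 bp under DHX9 knockdown, against 48.0, 58.0 and 46.0 bp in multi-exon genes. Downstream summits numbered 31 of 44 (70.5%), 22 of 29 (75.9%) and 44 of 68 (64.7%). Within 200 bp of the start lay 37 (84.1%), 22 (75.9%) and 56 (82.4%), against 78.9%, 76.3% and 78.0% of multi-exon genes. Farther than 500 bp lay 4 (9.09%), 3 (10.3%) and 6 (8.82%), against 4.65%, 4.90% and 5.01%. No gene of the 87 had more than 1 summit within its window in any list. Median peak widths were 316, 297 and 344 bp, against 321, 278 and 328 bp.

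**Figure D4:**
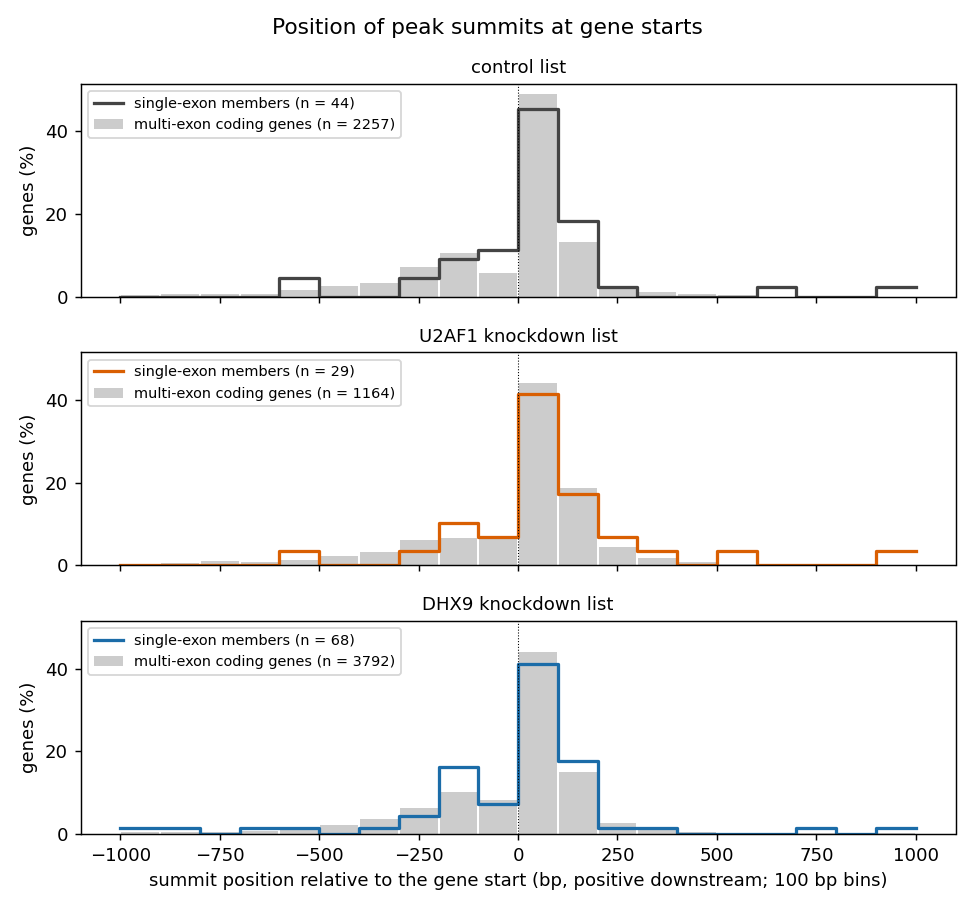
Position of the summit relative to the gene start in each list. The x axis is distance in bp, positive downstream, in 100 bp bins, and the y axis is the percentage of genes of each kind, with coloured lines for the single-exon genes and grey bars for multi-exon coding genes. Both kinds peak in the first 100 bp after the start in all 3 lists, and the few single-exon genes beyond 500 bp stand above the grey bars there.

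Only the 1000 bp limit decided membership for a few genes. The members nearest to it were OLIG3 (943 bp), SOX3 (951 bp) and HNRNPA0 (953 bp), and the nearest genes outside were ENSG00000288654 (1022 bp), ENSG00000288625 (1380 bp) and INSM1 (1466 bp). The nearest summit lay within 500 bp for 78 of the 87 and between 500 and 1000 bp for 9, and 6 further genes had one between 1000 and 2000 bp.

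A summit near a start can belong to a neighbour, because divergent genes often share 1 promoter region. Another coding start lay within 1000 bp for 22 of the 87 genes (25.3%), against 23.3% of multi-exon genes, and a divergent one for 15 (17.2%), against 17.3%. Divergent examples are DOLK with NUP188 (96 bp), TIGD1 with EIF4E2 (132 bp), CCDC87 with CCS (122 bp), FAHD1 with HAGH (381 bp), MGAT2 with RPL36AL (173 bp) and SOWAHC with SEPTIN10 (398 bp). The genes annotated over fewer than 300 bp all had another coding start within 1000 bp, mostly on the same strand. Among these were ENSG00000292259 with MAPKAPK5 (9 bp), ENSG00000288716 with MYCBP2 (106 bp), ENSG00000288623 with RNF10 (341 bp) and ENSG00000289767 with EBAG9 (447 bp). Among coding starts, the highest peak of a gene was nearest to its own in 38 of 44 genes of the control list. In the U2AF1 and DHX9 knockdown lists this held for 27 of 29 and 57 of 68 genes. Counted against the starts of all annotated genes, noncoding ones included, 36, 25 and 55 genes remained in the same order. Under that count 74 of the 87 genes remained in all. For 10 of the 87, among them CCDC87, FAHD1, PPP1R3D and ZNF830, every peak was nearest to another coding start, so polymerase there cannot be assigned to the single-exon gene. KLLN and ENSG00000289051, with starts 26 bp apart, were represented by the same peaks and are not independent.

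The lists were also compared over genes without a near coding neighbour. Starts of noncoding genes were not considered in this choice. For example, one lay 181 bp from the start of RHOB, 161 bp from that of IER5 and 145 bp from that of WDR5B. Of the 65 genes with no other coding start within 1000 bp, the control list held 33 (50.8%), the U2AF1 knockdown list 24 (36.9%, 26.2 to 49.1) and that of DHX9 knockdown 49 (75.4%). Multi-exon genes chosen in the same way (n = 3450) gave 49.5%, 26.0% and 84.2%. The order of the lists was the same as over all 87 genes, but the interval for the U2AF1 knockdown list here did not include the 26.0% of multi-exon genes. Of the genes held by all 3 lists, 8 kept peaks with a −log10 q of at least 5 in each of them, namely CCDC85B, CEBPA, CEBPB, DOLK, IER5L, NRARP, RHOB and RPP25.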

How the data were processed

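POLR2A ChIP-seq peaks were analysed in 3 deposited lists, 1 per condition. The submitters' processing notes name Bowtie2 2.4.5, MACS2 2.2.7.1, deepTools 3.5.1 and hg38, without a role or order. Read filters, the use of the input samples, the pooling of replicates and depth are not given in the sources used here. Each deposited list gives, for each peak, positions, a display score that was not used, the authors' fold enrichment (a ratio over their background), the deposited −log10 p-value and the deposited −log10 q-value. Columns of values left unmapped numbered 0.

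Coordinates count from 1. Summits were assigned to canonical starts of GENCODE version 44 within 1000 bp, and the highest fold in the window was kept. Shares have 95% Wilson intervals, which cover counting error only. Where a gene is missing from a list, its signal was below the authors' threshold or not measured, and absence of polymerase is not shown. With 1 list per condition, no difference was tested against replicate spread. The assignment was checked on simulated data. Named genes were, by rule, the 10 highest of all 3 lists, the 4 highest of each other pattern, the 3 highest of each role group and the 3 on each side of the limit, ordered by mean percentile. Others were named after their values were seen, and 1 gene is counted but not reported here. Role groups were set by gene symbol. The members and lists were chosen with earlier results of these data known. Python 3.11.15, numpy 2.4.6, pandas 2.3.3, scipy 1.17.1 and matplotlib 3.10.9 were used. The 8 alternative settings were windows of 500 and 2000 bp, −log10 q of at least 5, equal list sizes, the summit nearest to the own start, 1 exon in every transcript, chromosomes 1 to 22 and X, and overlap of the peak with the window.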

Additional observations from a re-analysis of the deposited data

How the results depend on the processing

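Of the 40 recomputed values for the number of genes and their shares by list, 36 stayed within their counting error or within 1.5 times, and 4 moved. The number of genes fell from 87 to 56 with a −log10 q of at least 5 and to 50 when each list kept its 1730 peaks of lowest p-value. With these equal sizes the share in the U2AF1 knockdown list was 58.0% and that in the DHX9 knockdown list 52.0%, with 46.0% in the control list, so the order of the lists changed. Fewer peaks were kept in both settings. Multi-exon genes then gave 45.4%, 58.8% and 56.1%. Of the 48 values for median percentile and summit distance, 43 stayed and 5 moved, all of them percentiles under these settings. No value changed sign. With equal list sizes the median percentile was 60.3 in the U2AF1 knockdown list, 84.2 in the control list and 82.3 in the DHX9 knockdown list. Percentiles were still counted over all peaks of each uncut list. The U2AF1 knockdown list already had 1730 peaks and lost none, while weak peaks left the other lists. Leaving out weak peaks raises percentiles counted in this way. The moved percentiles and their changed order therefore follow from the settings and say nothing about the genes. Depth is unknown, so weak peaks missing from the shortest list were not tested against it. Leaving out a replicate was not possible with 1 list per condition. No paired analysis was possible because the replicates of a condition share 1 list.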

Other observations

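G and C content at the start differed between the combinations of lists, a pattern noticed after the values were seen and not tested. The 8 single-exon genes of the control list alone, among them SOX4, CREBZF, WDR5B and SRSF8, had a median of 55.3%, whereas the 13 genes of all 3 lists had 70.7%, the 29 of the DHX9 knockdown list alone 67.0% and the 9 of the U2AF1 knockdown list alone 75.3%. Multi-exon genes of the same combinations had 66.7% (n = 492), 71.3% (n = 693), 68.3% (n = 1849) and 70.0% (n = 139), with the control-only genes lowest as well. CCAAT lay within the 300 bases at 6 of the 8 control-only genes (75.0%) and at 0 of the 5 genes of both knockdowns without control, SOWAHC, RBM15B, FRAT2, RRAGA and RTL8C. In multi-exon genes CCAAT was found at 37.6% and 31.8% of these combinations. The 2 were the extremes for single-exon genes. The other combinations ranged from 22.2% for U2AF1 knockdown alone (n = 9) to 61.5% for all 3 lists (n = 13). The control-only genes include HNRNPA0, which carried CCAAT and fell into that group only through the 1000 bp limit.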
